A study of Mus musculus with 304 samples.

Results

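Voltage-gated sodium channels, voltage-gated calcium channels and hyperpolarization-activated (HCN) channels were followed at the transcript level in single granule cells of the dentate gyrus, part of the mouse hippocampus. The set was taken by gene symbol: every row beginning with Scn and a digit, with Cacna, Cacnb or Cacng, or with Hcn and a digit. This gave 44 of 22800 genes, in 9 families: 10 sodium channel alpha subunits, 4 sodium channel beta subunits, 4 Cav1, 3 Cav2 and 3 Cav3 alpha1 subunits, 4 alpha2delta subunits, 4 calcium channel beta subunits, 8 gamma subunits and AMPA receptor regulatory proteins, and 4 HCN subunits. The cells were collected by Patch-seq, in which the cytosol of 1 cell is sucked into a patch pipette and sequenced. Kainic acid, a glutamate receptor agonist that provokes seizures, was microinjected into the hippocampus (70 nl at 5 mM), and granule cells were sampled 1 day later on the injected side (58 cells) and 14 days later (29 cells, side not labelled). Another pair of groups was sampled 1 month after an adeno-associated virus that overexpressed Id2 (71 cells) or, as its control, GFP (59 cells). Control cells came from mice without an injection (31 cells). Strain, age, genotype, virus promoter and animal are not given in the labels, and no deletion or transgene is labelled as shared by the groups. The 3 comparisons of day 1, day 14 and GFP cells against control use the same 31 control cells.

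Sodium channel alpha subunits form the pore that carries the rising phase of the action potential, and their beta subunits set its gating and its placement in the membrane. Calcium channel alpha1 subunits form the pores of L-type (Cav1), P/Q-, N- and R-type (Cav2) and T-type (Cav3) currents, while alpha2delta and beta subunits help to bring Cav1 and Cav2 pores to the surface. HCN channels open on hyperpolarization and carry a depolarizing inward current. Granule cells are known for sparse firing, and their T-type channels help to drive bursts. Id2 is an inhibitor of helix-loop-helix transcription factors, which bind the short DNA motif called the E-box.

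Animals are not named in the labels, so a group counts as 1 sample here and its differences from others carry no test. Values are CPM, the summed reads of a gene over a group's cells for every 1000000 reads of that group. Their 95% intervals are exact Poisson limits on the reads and cover counting error only, not the spread between cells or animals. For members at or above 5 CPM the widest reached 3.96% to a side at day 1, 5.49% at day 14, 4.46% with Id2, 6% with GFP and 11.3% in control cells. Reads per cell ran between 32487 and 27708910, with group medians between 1738610 in control cells and 7615492 at day 14. Granule cell markers such as Prox1 and Calb1 summed to 987 CPM at day 1, 1135 CPM at day 14, 1965 CPM with Id2, 2727 CPM with GFP and 2402 CPM in control cells. In each group 5 or 6 of 6 markers exceeded 5 CPM. The lowest cell had 0 CPM of them at day 1, with Id2 and with GFP, 244 at day 14 and 0.779 in control cells. Markers of the labelled cell type were thus present in each group but not in every cell. Calb1, C1ql2, Stxbp6 and Tdo2 were lower in both kainate groups than in control cells, and Prox1 and Dsp higher. Interneuron markers summed to 689 CPM at day 1, 1184 CPM at day 14, 356 CPM with Id2, 582 CPM with GFP and 674 CPM in control cells, most of it from Gad1, which granule cells also express, and 1 or 2 of their 6 genes exceeded 5 CPM in a group. Gad2, an interneuron marker, went with the kainate groups, at 29.6 CPM at day 1, 111.3 CPM at day 14, 0 CPM with Id2, 0.852 CPM with GFP and 0.104 CPM in control cells, with reads in 12 of 58 day 1 and 8 of 29 day 14 cells, and its part in the kainate results was not tested. Markers of microglia, the immune cells of the brain, summed to 741 CPM at day 1, 6266 CPM at day 14, 573 CPM with Id2, 161 CPM with GFP and 3432 CPM in control cells, with P2ry12 at 0 at day 1, and 7 of 58 at day 1, 20 of 29 at day 14, 11 of 71 with Id2, 2 of 59 with GFP and 17 of 31 in control cells had at least 1000 CPM of them. Day 1, day 14 and control cells carry different series or ranges of titles, so the treatment cannot be told apart from a batch that goes with the titles.

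In every group the lowest cell had 0 reads for every one of the 44 genes, so all groups overlapped for each gene, and the spread is given below by the median and the highest cell. Of the channels known from muscle or sensory neurons, 4 (Scn4a, Scn10a, Scn11a and Cacng1) had a read in 0% to 5.17% of cells at day 1. Their shares ran up to 3.45% at day 14, 2.82% with Id2, 8.47% with GFP and 6.45% in control cells. These 4 were picked by hand, so they give only a rough background for a share of cells with a read. Cacna1s and Scn9a, also known from muscle and from pain-sensing neurons, were not among them and had larger shares in some groups, given below. The median cell, thinned to 100000 reads, had a read for 11 members at day 1, 12 at day 14, 10 with Id2, 11 with GFP and 10 in control cells. All 44 genes together took 1898 CPM at day 1, 1959 CPM at day 14, 2188 CPM with Id2, 2550.3 CPM with GFP and 2449 CPM in control cells. Levels of different genes are compared per kilobase of exon below.

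Promoter sequence is shown for Scn1a, Scn2b and Cacna1s, whose levels set groups apart in the results that follow: Scn2b between Id2 and GFP cells, and Scn1a and Cacna1s between day 14 and the other uninfected groups. The lines give the bases upstream of both the RefSeq and the GENCODE start, 5′ to 3′ in gene sense, with matches to the E-box CANNTG in capitals.

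Scn1a, GRCm38.p6 chr2:66440841-66441087, minus strand: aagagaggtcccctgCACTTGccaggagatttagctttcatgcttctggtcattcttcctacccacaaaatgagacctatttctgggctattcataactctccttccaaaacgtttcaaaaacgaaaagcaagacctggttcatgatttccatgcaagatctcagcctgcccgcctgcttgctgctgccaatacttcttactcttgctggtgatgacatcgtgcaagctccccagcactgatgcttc

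Scn2b, GRCm38.p6 chr9:45117626-45117781, plus strand: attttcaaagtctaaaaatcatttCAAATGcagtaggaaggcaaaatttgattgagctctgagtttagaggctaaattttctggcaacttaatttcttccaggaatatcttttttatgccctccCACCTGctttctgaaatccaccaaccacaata

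Cacna1s, GRCm38.p6 chr1:136052561-136052749, plus strand: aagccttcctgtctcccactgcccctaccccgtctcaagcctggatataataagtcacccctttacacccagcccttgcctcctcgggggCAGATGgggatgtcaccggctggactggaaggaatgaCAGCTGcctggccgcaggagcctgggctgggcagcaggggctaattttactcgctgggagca

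The E-box reads the same on both strands, and it occurred 1 time before Scn1a, 2 times before Scn2b and 2 times before Cacna1s. Of 32851 RefSeq promoter windows of 250 upstream bases in the same build, 66.2% held at least 1 such match, so a match is common. Among the members, 32 of 44 had a window, and 27 of their 43 windows (62.8%) held one. The AP-1 motif TGANTCA was in 6.75% of all windows and in 1 member window, that of Cacng5, and the cyclic AMP response motif TGACGTCA in 1.55% of all windows and 0 member windows. None of the 3 printed stretches held either of them.

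The sodium channel alpha subunits summed to 302 CPM at day 1, 540.0 CPM at day 14, 629 CPM with Id2, 617 CPM with GFP and 683 CPM in control cells, lowest at day 1. Per median cell they came to 298 CPM at day 1, 391 at day 14, 626 with Id2, 613 with GFP and 395 in control cells. Scn8a, which encodes Nav1.6 of the axon initial segment and nodes of Ranvier, was the alpha subunit with the highest level in GFP cells and the most widely detected. It had 136 CPM at day 1, 163 CPM at day 14, 269 CPM with Id2, 283 CPM with GFP and 226 CPM in control cells. The share of cells with a read was 91.4% at day 1, 86.2% at day 14, 93% with Id2, 98.3% with GFP and 87.1% in control cells. Its median cell had 92.1 CPM at day 1, 132 at day 14, 128.1 with Id2, 210.3 with GFP and 108.1 in control cells and its highest cells 793 CPM at day 1, 812 at day 14, 1649 with Id2, 1838 with GFP and 1364 in control cells. Its day 1 level was 1.66-fold lower than control and its Id2 level 1.05-fold lower than GFP, both under 2-fold. Scn2a1, the table's older symbol for Scn2a (Nav1.2), stood at 72.3 CPM at day 1, 208 CPM at day 14, 151 CPM with Id2, 135 CPM with GFP and 206 CPM in control cells. Medians over cells were 5.67 CPM at day 1, 131 at day 14, 18.6 with Id2, 20.9 with GFP and 48.4 in control cells, with highest cells at 1593 CPM at day 1, 1066 at day 14, 1922 with Id2, 1147 with GFP and 735 in control cells. Day 1 was thus the low group and day 14 lay within 1.01-fold of control, although the median day 14 cell lay above the median cell of each other group. Scn3a (Nav1.3), known for its high level in the immature brain, had 59.6 CPM at day 1, 50.9 CPM at day 14, 150.0 CPM with Id2, 113.5 CPM with GFP and 193 CPM in control cells. Per cell, the median was 2.11 CPM at day 1, 0.144 at day 14, 13.2 with Id2, 23.1 with GFP and 1.65 in control cells, and the highest value was 619 CPM at day 1, 487 at day 14, 2186 with Id2, 842 with GFP and 1056 in control cells. In summed level both kainate groups lay below the 3 others, although the median day 1 cell lay above the median control cell. Scn1a (Nav1.1, the subunit mutated in Dravet syndrome) went the other way at day 14, with 29.1 CPM at day 1, 113.7 CPM at day 14, 44.3 CPM with Id2, 60.3 CPM with GFP and 31.8 CPM in control cells. Over single cells the median came to 0 CPM at day 1, 20.4 at day 14, 0.225 with Id2, 0 with GFP and 0 in control cells, and the top cells reached 299 CPM at day 1, 1541 at day 14, 545 with Id2, 707 with GFP and 253 in control cells. Reads of Scn1a were in 24 of 58 at day 1, 22 of 29 at day 14, 38 of 71 with Id2, 25 of 59 with GFP and 8 of 31 in control cells. Day 14 was the only group in which the median cell had more than 1 CPM of it. Scn9a (Nav1.7, best known from pain-sensing neurons) had 0.0323 CPM at day 1, 0.15 CPM at day 14, 13.6 CPM with Id2, 20.4 CPM with GFP and 24.3 CPM in control cells. Its median was 0 in every group, and the highest cells reached 1.38 CPM at day 1, 2.29 at day 14, 339 with Id2, 599.6 with GFP and 544 in control cells. Reads were in 6 of 58 at day 1, 6 of 29 at day 14, 15 of 71 with Id2, 13 of 59 with GFP and 6 of 31 in control cells, so in kainate cells its reads were few even where present, with 15 reads in all at day 1 and 39 at day 14. Scn3a (chr2:65457118-65567627), Scn2a1 (chr2:65620771-65767447), Scn1a (chr2:66270778-66440840) and Scn9a (chr2:66480080-66634962) are neighbours on chromosome 2 of GRCm38, so genes that stood high and low at day 14 lie in 1 cluster. Scn4a, Scn7a, Scn10a and Scn11a each stayed at or under 3.75 CPM in all groups.

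The beta subunits differed in kind: Scn3b was low at day 1 and Scn2b high with GFP. Scn3b, a beta subunit held to the pore without a covalent bond, lies at chr9:40269217-40291618 of GRCm38. It had 36.2 CPM at day 1, 128.8 CPM at day 14, 123.1 CPM with Id2, 273 CPM with GFP and 264 CPM in control cells. The Poisson interval ran from 35.6 to 36.7 CPM at day 1 and from 260.0 to 268 CPM in control cells. Its median cell had 0 CPM at day 1, 2.86 at day 14, 0 with Id2, 132 with GFP and 286 in control cells and its highest cells 204 CPM at day 1, 1580.2 at day 14, 2702 with Id2, 1604 with GFP and 1203 in control cells. Only 25.9% of day 1 cells had a read (exact interval 15.3% to 39%), against 67.7% of control cells (48.6% to 83.3%), and the depth was greater at day 1. The highest day 1 cell lay below the median control cell. Scn2b, a beta subunit linked to the pore by a disulfide bond, lies at chr9:45117782-45130070 and had 16 CPM at day 1, 16.4 CPM at day 14, 28.4 CPM with Id2, 58.1 CPM with GFP and 6.45 CPM in control cells. Medians over cells were 7.9 CPM at day 1, 1.96 at day 14, 1.39 with Id2, 16.2 with GFP and 0 in control cells, with highest cells at 112.4 CPM at day 1, 193 at day 14, 207 with Id2, 636 with GFP and 61.2 in control cells. GFP cells were highest and control cells lowest, and the thinned share of cells with a read was 46.6% at day 1, 27.6% at day 14, 45.1% with Id2, 52.5% with GFP and 13.8% in control cells. In day 14 cells 65.9% of its reads came from 1 cell. Its printed stretch holds 2 E-boxes, as does that of Cacna1s, and such matches are common among promoters. Scn4b stayed at or under 1.25 CPM.

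**Figure D1:**
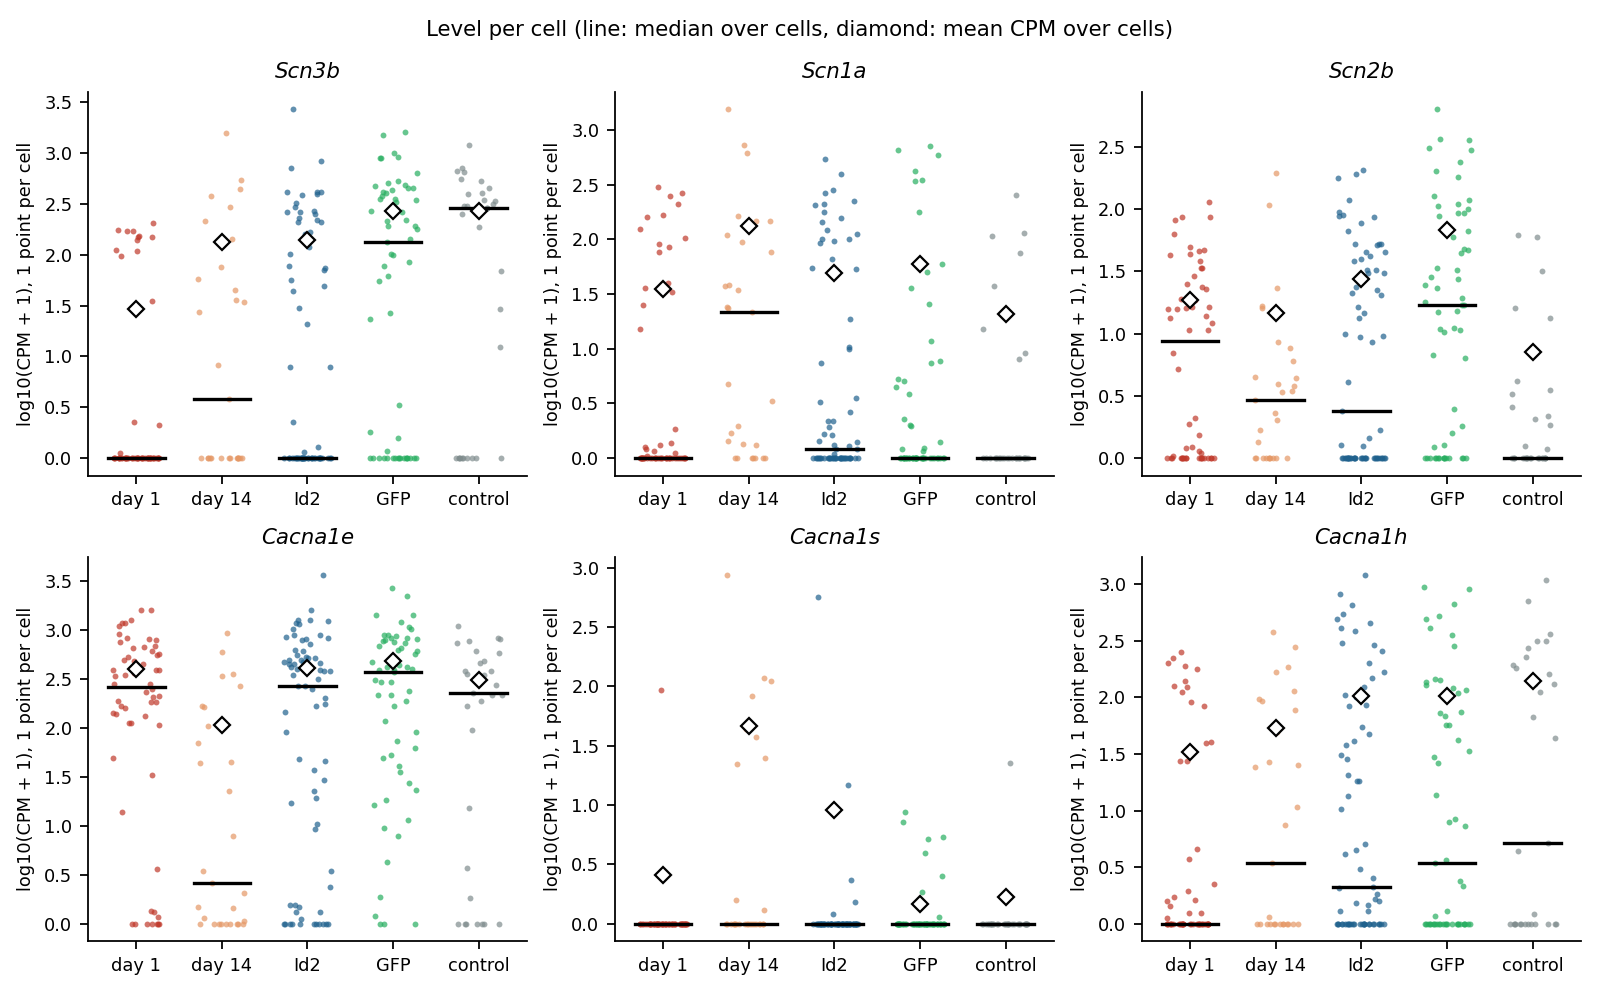
Level of Scn3b, Scn1a, Scn2b, Cacna1e, Cacna1s and Cacna1h in each cell, as log10(CPM + 1) on the vertical axis, for day 1, day 14, Id2, GFP and control cells. Points are cells, lines medians and diamonds the mean CPM over cells: no day 1 cell reached the median control cell for Scn3b, the day 14 median of Cacna1e was 1.62 CPM, and Cacna1s was read in 10 of 29 day 14 cells.

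Among the L-type Cav1 subunits, the usual neuronal pair Cacna1c (Cav1.2) and Cacna1d (Cav1.3) differed in opposite time order. Cacna1c had 74.3 CPM at day 1, 31.2 CPM at day 14, 70.9 CPM with Id2, 48.8 CPM with GFP and 106.002 CPM in control cells. Per cell, the median was 29.7 CPM at day 1, 0.477 at day 14, 18.4 with Id2, 2.09 with GFP and 42.9 in control cells, and the highest value was 443 CPM at day 1, 413 at day 14, 579 with Id2, 684 with GFP and 740.2 in control cells. The low group was day 14. Cacna1d had 16.4 CPM at day 1, 26.9 CPM at day 14, 71.2 CPM with Id2, 90.4 CPM with GFP and 72.6 CPM in control cells. Over single cells the median came to 0 CPM at day 1, 0.299 at day 14, 0 with Id2, 1.72 with GFP and 0.51 in control cells, and the top cells reached 225 CPM at day 1, 234 at day 14, 2149.8 with Id2, 866 with GFP and 258 in control cells. Here day 1 was lowest, with reads in 31% of cells against 51.6% of control cells. Cacna1s (Cav1.1), the voltage sensor of skeletal muscle, lies at chr1:136052750-136119822 of GRCm38 on the plus strand. It had 1.45 CPM at day 1, 33.9 CPM at day 14, 3.58 CPM with Id2, 0.573 CPM with GFP and 0.194 CPM in control cells. The median was 0 in every group and the highest cells reached 92 CPM at day 1, 869 at day 14, 562 with Id2, 7.77 with GFP and 21.4 in control cells. Reads were in 1 of 58 at day 1, 10 of 29 at day 14, 5 of 71 with Id2, 8 of 59 with GFP and 1 of 31 in control cells, and in thinned cells in 9 of 29 at day 14 and 1 of 29 in control. One day 14 cell gave 62% of that group's reads. Among day 14 cells, 8 of the 20 rich in microglial markers and 2 of the 9 others had a read, at 42.2 and 14.7 CPM. The part of microglial RNA in this level was not tested. In GENCODE M21, 20% of the exonic length overlaps the antisense gene Gm37759, and the sources used here do not give the counting strand, so reads of the pair cannot be told apart there. Cacna1f, the retinal subunit, had reads in at most 7.04% of the cells of a group.

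The Cav2 subunits summed to 548 CPM at day 1, 173 CPM at day 14, 459.6 CPM with Id2, 562 CPM with GFP and 424 CPM in control cells, with the low value at day 14. Cacna1e, which encodes the R-type channel Cav2.3, lies at chr1:154390731-154884501 of GRCm38 and had 469.6 CPM at day 1, 73.7 CPM at day 14, 408 CPM with Id2, 478 CPM with GFP and 346 CPM in control cells. Its median cell had 263 CPM at day 1, 1.62 at day 14, 265 with Id2, 369 with GFP and 226 in control cells and its highest cells 1614 CPM at day 1, 921 at day 14, 3664 with Id2, 2666 with GFP and 1089.9 in control cells. Its Poisson interval ran from 72.7 to 74.7 CPM at day 14 and 342 to 351 CPM in control cells. The other 3 groups had higher levels than control. At day 14 its level was 39.4 CPM in the 20 cells rich in microglial markers and 152 CPM in the 9 others, while the 17 rich control cells had 332 CPM and the 14 others 372 CPM. Both kinds of day 14 cells lay below both kinds of control cells. In the other groups too the rich cells were lower, at 129.1 CPM in 7 rich and 507 CPM in 51 other day 1 cells, 223 CPM in 11 rich and 437 CPM in 60 other Id2 cells, and 31.1 CPM in 2 rich and 484 CPM in 57 other GFP cells. The part of microglial RNA in its day 14 level was not tested. Cacna1a (P/Q-type, Cav2.1) had 59.3 CPM at day 1, 74.2 CPM at day 14, 18.8 CPM with Id2, 20.9 CPM with GFP and 39.9 CPM in control cells, and Cacna1b (N-type, Cav2.2) had 19 CPM at day 1, 25.5 CPM at day 14, 32.7 CPM with Id2, 62.8 CPM with GFP and 38.2 CPM in control cells. Both passed the filter on low values in all 5 comparisons, and neither differed by 2-fold in all versions.

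The T-type Cav3 subunits summed to 43.8 CPM at day 1, 110.3 CPM at day 14, 124.01 CPM with Id2, 129.2 CPM with GFP and 171 CPM in control cells, lowest at day 1. Per median cell they came to 0.389 CPM at day 1, 23.2 at day 14, 9.61 with Id2, 25.4 with GFP and 42.6 in control cells. Cacna1h (Cav3.2), the T-type subunit with the highest level per kilobase in each group, had 33.9 CPM at day 1, 51.9 CPM at day 14, 90.3 CPM with Id2, 89.8 CPM with GFP and 161 CPM in control cells. Medians over cells were 0 CPM at day 1, 2.48 at day 14, 1.1 with Id2, 2.44 with GFP and 4.2 in control cells, with highest cells at 249 CPM at day 1, 381 at day 14, 1209 with Id2, 939.8 with GFP and 1085 in control cells. Reads were in 44.8% at day 1, 55.2% at day 14, 62% with Id2, 57.6% with GFP and 58.1% in control cells. One control cell held 42% of the control reads. Control cells without many microglial markers had 295 CPM of Cacna1h and the rich ones 86.4 CPM, while at day 14 the order was turned round, with 6.34 CPM in the 9 others and 71.7 CPM in the 20 rich cells. Cacna1g (Cav3.1) had 2.86 CPM at day 1, 52.3 CPM at day 14, 23.5 CPM with Id2, 23 CPM with GFP and 10.1 CPM in control cells. Its median was 0 in every group and the highest cells reached 116.8 CPM at day 1, 1356 at day 14, 1041 with Id2, 369.9 with GFP and 93.4 in control cells. At day 14 only 8 of 29 cells had a read, and 1 of them gave 62.6% of the reads. Cacna1i (Cav3.3) had 7.03 CPM at day 1, 6.09 CPM at day 14, 10.2 CPM with Id2, 16.5 CPM with GFP and 0.0298 CPM in control cells, where the control value rests on 2 reads in 1 cell. Its median was 0 in every group and the highest cells reached 157 CPM at day 1, 51.4 at day 14, 1192 with Id2, 671 with GFP and 3.74 in control cells. Reads of Cacna1i were in 9 of 58 at day 1, 7 of 29 at day 14, 14 of 71 with Id2, 11 of 59 with GFP and 1 of 31 in control cells.

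Of the auxiliary calcium channel genes, the alpha2delta subunits varied least as a family total, at 228 CPM at day 1, 253 CPM at day 14, 272 CPM with Id2, 225 CPM with GFP and 190.5 CPM in control cells. Cacna2d1, which encodes a gabapentin-binding subunit, had 133 CPM at day 1, 140.3 CPM at day 14, 99.9 CPM with Id2, 132 CPM with GFP and 108.3 CPM in control cells. Per cell, the median was 20.2 CPM at day 1, 72.7 at day 14, 4.08 with Id2, 6.14 with GFP and 2.35 in control cells, and the highest value was 927 CPM at day 1, 1522 at day 14, 2452 with Id2, 860.3 with GFP and 561 in control cells. Cacna2d3 had 92.6 CPM at day 1, 113.03 CPM at day 14, 171 CPM with Id2, 92.3 CPM with GFP and 82.2 CPM in control cells, and Cacna2d2 and Cacna2d4 had reads in at most 10.2% of the cells of a group. The beta subunits bind the alpha1 pore inside the cell and differed in direction, and control cells had the lowest level of Cacnb1 and the highest of Cacnb2. Cacnb1 had 37 CPM at day 1, 51.5 CPM at day 14, 49.9 CPM with Id2, 26.7 CPM with GFP and 18.9 CPM in control cells. Over single cells the median came to 14.5 CPM at day 1, 9.3 at day 14, 0 with Id2, 0 with GFP and 0 in control cells, and the top cells reached 201 CPM at day 1, 470.1 at day 14, 571 with Id2, 402 with GFP and 213 in control cells. The median control cell thus had no read of Cacnb1. Cacnb2 had 75.8 CPM at day 1, 51.1 CPM at day 14, 51.6 CPM with Id2, 54.8 CPM with GFP and 164 CPM in control cells. Its median cell had 0.136 CPM at day 1, 0 at day 14, 0 with Id2, 0 with GFP and 8.06 in control cells and its highest cells 511 CPM at day 1, 258 at day 14, 1022 with Id2, 1327 with GFP and 1455 in control cells. For Cacnb2 the control cells also had the highest median, with reads in 10 of 22 J-titled control cells and 9 of 9 others. Cacnb3 had 40.5 CPM at day 1, 63.1 CPM at day 14, 51 CPM with Id2, 72.5 CPM with GFP and 73.4 CPM in control cells. Medians over cells were 6.08 CPM at day 1, 27 at day 14, 0 with Id2, 0 with GFP and 12.5 in control cells, with highest cells at 349.5 CPM at day 1, 455 at day 14, 943 with Id2, 998 with GFP and 420.2 in control cells. It was the beta subunit with the highest level in GFP cells. Cacnb4, mutated in the epileptic lethargic mouse, had 113.1 CPM at day 1, 155 CPM at day 14, 56.5 CPM with Id2, 64.2 CPM with GFP and 45.3 CPM in control cells, highest in both kainate groups, with 16% of its exonic length under an antisense gene. Cacng3, whose product (TARP gamma-3) traffics AMPA receptors, had 219 CPM at day 1, 66.5 CPM at day 14, 112.6 CPM with Id2, 179 CPM with GFP and 106.9 CPM in control cells. Per cell, the median was 99.1 CPM at day 1, 0.387 at day 14, 0 with Id2, 0 with GFP and 0 in control cells, and the highest value was 2292 CPM at day 1, 447 at day 14, 849 with Id2, 1344 with GFP and 429 in control cells. Reads were in 74.1% at day 1, 51.7% at day 14, 49.3% with Id2, 45.8% with GFP and 41.9% in control cells, and day 1 had the highest level, median and share. Cacng2 (stargazin) had 17.2 CPM at day 1, 21 CPM at day 14, 12.4 CPM with Id2, 21.1 CPM with GFP and 13.7 CPM in control cells. The other 6 gamma genes did not pass the filter on low values in any comparison, and Cacng5 had 25.5 CPM in GFP cells from only 4 of 59 cells.

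HCN genes were sparse, and the median cell had 0 reads of the family in every group. The family was read in 22.5% of Id2 cells, the lowest share, and in 48.3% of day 14 cells, the highest. Its total ran from 11.7 CPM with GFP to 42.3 CPM in control cells, where the highest cell had 632 CPM. Hcn2 had 1.29 CPM at day 1, 11.8 CPM at day 14, 10 CPM with Id2, 4.2 CPM with GFP and 12.6 CPM in control cells. Reads were in 6 of 58 at day 1, 7 of 29 at day 14, 10 of 71 with Id2, 10 of 59 with GFP and 7 of 31 in control cells, and the highest cells reached 31.3 CPM at day 1, 103.3 at day 14, 378 with Id2, 73.8 with GFP and 234 in control cells. In control cells its level was 19.4 CPM in the 17 cells rich in microglial markers and 0.334 CPM in the 14 others. Hcn4, the pacemaker subunit of the heart, had 0.101 CPM at day 1, 0.00752 CPM with Id2 and, from 3 of 59 cells, 5.1 CPM with GFP. Its highest cells reached 15.6 CPM at day 1, 0.167 with Id2 and 182 with GFP. It had 0 reads at day 14, where 3 reads would be 0.0115 CPM, and in control cells, where 3 reads would be 0.0447 CPM. Hcn3 had reads in at most 12.1% of the cells of a group, and 17.1% of its exonic length overlaps the antisense neighbour Pklr.

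Per kilobase of exon, the highest level among the 44 genes was that of Cacng3 at day 1 (79 CPM per kb), Cacng3 with Id2 (40.6), Cacng3 with GFP (64.4) and Scn3b in control cells (48.3). The same scale gives the make-up of each family. Cacna1s was 4.34% at day 1, 58.6% at day 14, 5.53% with Id2, 0.759% with GFP and 0.261% in control cells of the Cav1 subunits, and its day 14 share rests mainly on 1 cell. Of the alpha subunits, Scn3a was 21.4% at day 1, 9.84% at day 14, 26.1% with Id2, 20.1% with GFP and 30.5% in control cells, and Scn1a was 11.7% at day 1, 24.6% at day 14, 8.62% with Id2, 11.9% with GFP and 5.6% in control cells. Scn2a1 led at day 14 and in control cells, and Scn8a led at day 1 and in Id2 and GFP cells. Cacna1e was 72.4% at day 1, 24.4% at day 14, 76.6% with Id2, 69.9% with GFP and 65.2% in control cells of the Cav2 subunits, and day 14 was the only group in which Cacna1a, at 54.2%, outweighed it. Cacna1h was 77.7% at day 1, 47.9% at day 14, 73.4% with Id2, 70% with GFP and 94.3% in control cells of the Cav3 subunits, and Cacna1g 6.32% at day 1, 46.5% at day 14, 18.4% with Id2, 17.3% with GFP and 5.71% in control cells. The day 14 share of Cacna1g rests mainly on the single cell named above.

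**Figure D2:**
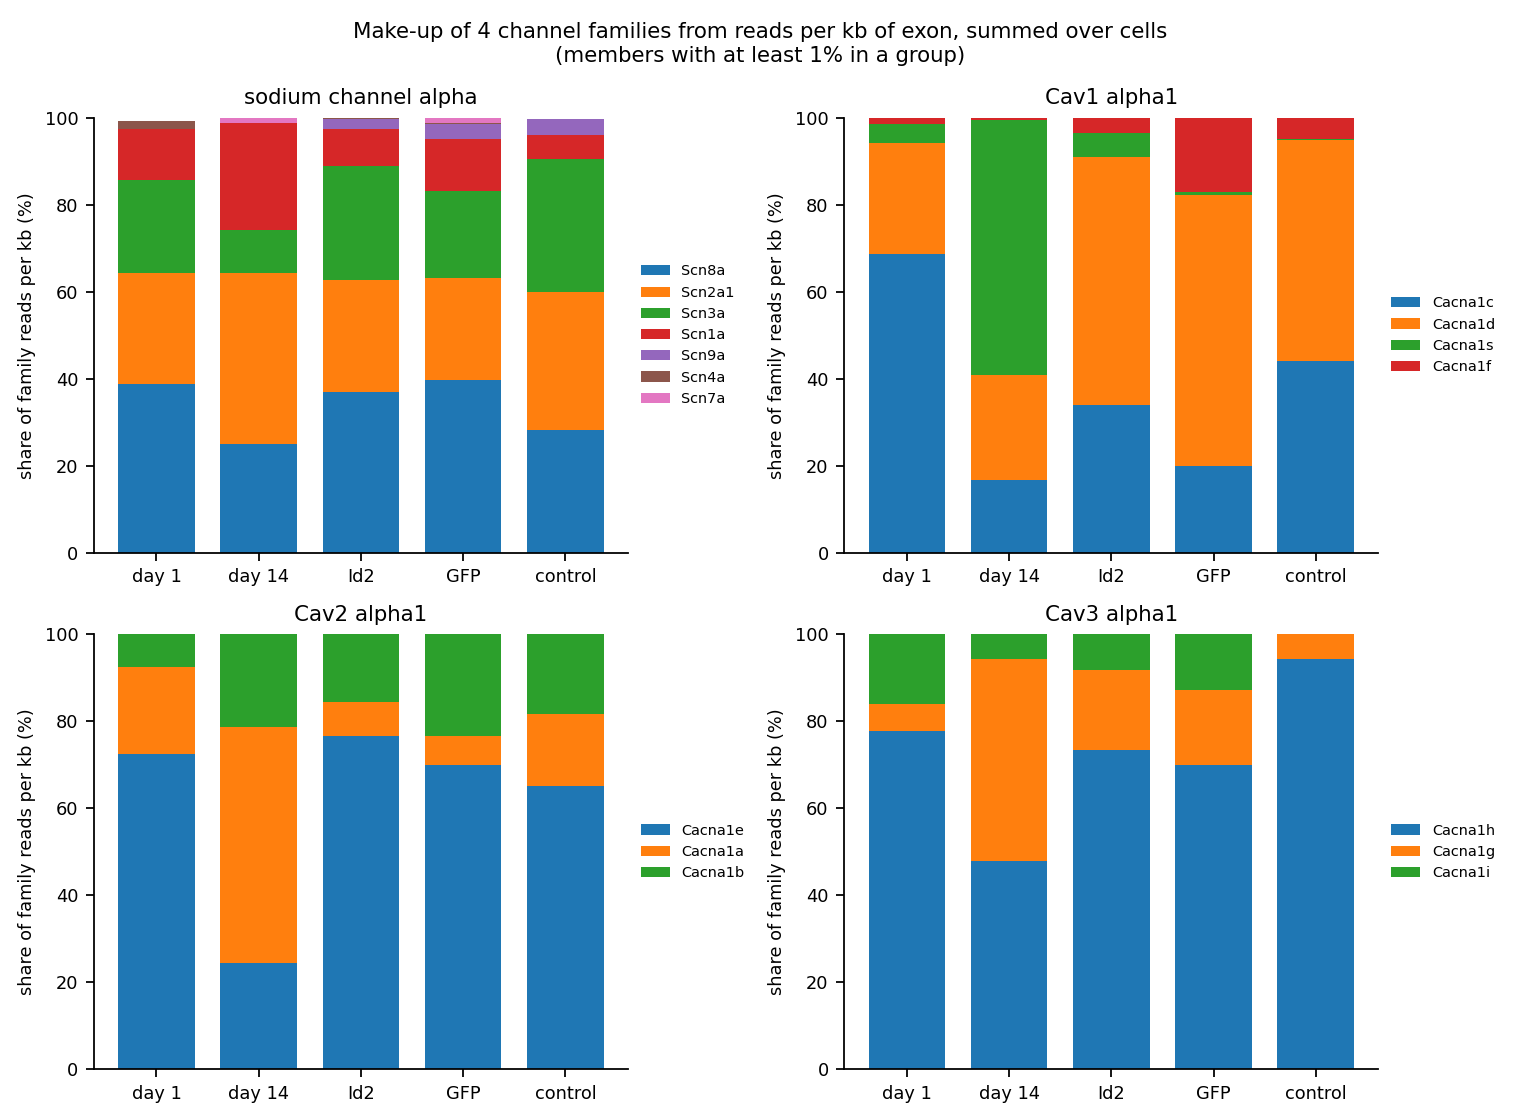
Make-up of the sodium channel alpha, Cav1, Cav2 and Cav3 families in day 1, day 14, Id2, GFP and control cells, as the percent of the family's reads per kilobase of exon summed over cells. Members with at least 1% of their family in a group are drawn: Cacna1s fills 58.6% of the Cav1 subunits at day 14 and 0.261% in control cells, and Cacna1e fills 24.4% of the Cav2 subunits at day 14 and 65.2% in control cells.

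One day after kainate, Scn3b, Cacna1h, Cacna1d, Scn3a and Hcn2 were lower than in control cells, and Cacng3 and Scn2b were higher. A difference was counted where the log2 ratio of CPM, taken after adding 1 CPM, was at least 1 in size with one sign in 3 versions: summed counts, means over cells and cells thinned to 100000 reads. Fold values in the text are plain ratios of CPM with nothing added, so they exceed what the log2 ratio gives for genes at low levels. Genes entered if a read was in 20% or more of one group's cells and a group reached 5 CPM. Of 24 members that entered, 2 were higher and 5 lower, against a background of 16.4% higher and 10.7% lower among all 9079 genes. As shares of the members this is 8.33% higher and 20.8% lower, and their median log2 ratio was -0.31 against 0.17 over all genes. Scn3b was 7.29-fold lower, with log2 ratios of -2.83 from summed counts, -3.18 from means over cells and -3.04 from thinned cells. Cacna1h was 4.75-fold lower (log2 -2.21), Cacna1d 4.44-fold lower (-2.09) and Scn3a 3.24-fold lower (-1.68). No single cell ended these 4 differences or that of Scn2b, which was 2.48-fold higher (1.19). Without cells rich in microglial markers the log2 ratio was -3.21 for Scn3b, -3.03 for Cacna1h, -1.04 for Cacna1d and -1.20 for Scn3a, while that of Scn2b was 0.17, and Cacna1d (in another version) and Scn2b then no longer met the rule. In another version Scn3a also missed it against the 22 J-titled control cells (-1.30), and Cacna1d against the 9 others (-1.15). Scn3a missed it too with Failed cells added and against GFP cells (-0.92), and Cacna1d without the deepest 10% of cells (-0.94). Cacng3 was 2.05-fold higher (1.03) but lay at the threshold: leaving out any of 18 cells ended the call, with ratios of 0.81 to 1.20 over all cells left out. It also missed the rule with median-of-ratios scaling (0.86), with Failed cells added (0.91), against the 9 control cells without J titles (0.85) and against GFP cells (0.29). Hcn2 was 9.75-fold lower (-2.57), with a log2 ratio of 0.87 without microglia-rich cells. It passed the filter only through control cells, so it could hardly be counted as higher. The call of Hcn2 rested on control cell 42, without which the ratio was -0.94.

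At day 14 after kainate, Cacna1s, Cacna1i, Cacna1g, Scn1a, Cacnb1 and Scn2b were among the members higher than in control cells, and Cacna1e, Scn3a, Cacna1c, Cacnb2, Cacna1h and Scn9a were lower. In all there were 7 higher and 6 lower of 27 members that entered, 25.9% and 22.2%, against 17.8% and 10.7% of 9469 genes. Of the higher ones, Cacna1s and Cacna1i passed the filter only through day 14 cells, so they could hardly be counted as lower. The median log2 ratio was 0.014 over the members and 0.14 over all genes. Scn1a was 3.57-fold higher (1.81), and Cacna1s 175-fold higher as a plain ratio (log2 4.87 after adding 1 CPM, counting interval of the ratio 102.3 to 329) against 13 control reads in 1 cell. Cacna1e was 4.7-fold lower, with log2 ratios of -2.22 from summed counts, -1.51 from means over cells and -1.67 from thinned cells. Scn3a was 3.8-fold lower (-1.90) and Cacna1c 3.4-fold lower (-1.73). No single cell ended any of these 5. Day 14 cells were the richest in microglial markers, and without the rich cells, which left 9 day 14 and 14 control cells, the log2 ratios were -2.32 for Scn3a, -1.62 for Cacna1c, 3.35 for Cacna1s and 1.04 for Scn1a. Cacna1e kept its sign there, at -1.28, but no longer passed in all 3 versions. Against GFP cells in place of control cells, Scn1a was 0.90 and Cacna1c -0.63, both short of the rule. Scn1a was also short of it against the 9 control cells without J titles (0.81), so its call depends on which control cells are used. Another 7 rested on few cells. Cacna1i was 205-fold higher as a plain ratio (log2 2.78 after adding 1 CPM), with a counting interval of 56.5 to 1691, set by 2 control reads, and missed the rule without day 14 cell 11, at 1.95 in the version from summed counts. Cells are numbered here over all labelled cells of a group. Cacna1g (2.26) was 0.92 without day 14 cell 19, and Cacnb1 (1.40) was 0.999 without day 14 cell 23. Cacna1h (-1.61) was at -0.93 without control cell 37, and Cacnb2 (-1.66) at -1.51 without control cell 39, where another version missed. Cacna1h also missed the rule with Failed cells added and against the 9 control cells without J titles. Cacnb2 missed it against the 22 J-titled control cells, which had 89.7 CPM of it, while the 9 others had 324 CPM. Scn9a (-4.46), at 39 day 14 reads against 1635 control reads, was lost without any of the 6 day 14 cells that had a read, since the share of cells with a read then lay under 20%. Its day 1 ratio was similar, at -4.62, but it did not enter there, as both groups lay under 20%. Scn2b (1.23) was lost without any of 26 cells, ranged over -0.10 to 2.14, and was -1.14 without microglia-rich cells.

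Day 1 and day 14 cells were also set side by side, as both followed the same agent and dose. At day 1, Cacna1e and Cacng3 were higher than at day 14, and Cacna1s, Cacna1g, Hcn2, Scn1a, Scn3b and Scn2a1 were lower. Of 26 members, 2 were higher and 6 lower (7.69% and 23.1%), against 13.1% and 14.4% of 9823 genes. Among the lower ones, Cacna1s, Cacna1g and Hcn2 passed the filter only through day 14 cells, so they could hardly be counted as higher. In all, 20 of the 26 ratios were below 0, and their median was -0.38 against 0.025 over all genes. Cacna1e was 6.37-fold higher, with log2 ratios of 2.66 from summed counts, 1.89 from means over cells and 2.01 from thinned cells, and Cacng3 was 3.3-fold higher (1.71). Scn3b was 3.56-fold lower (-1.80), Scn1a 3.9-fold lower (-1.93), Hcn2 9.13-fold lower (-2.48), Cacna1g 18.3-fold lower (-3.79) and Cacna1s 23.4-fold lower (-3.83). No single cell ended these 7, though leaving out 1 cell moved Cacna1g over -4.97 to -2.44 and Cacna1s over -5.12 to -2.53. Scn2a1 was 2.88-fold lower (-1.51) and was lost without day 14 cell 23, at -1.32 in the version from summed counts. With 51 day 1 and 9 day 14 cells low in microglial markers the ratio was 1.73 for Cacna1e, 2.36 for Cacng3, -2.47 for Scn3b and -2.48 for Scn1a.

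Id2 cells differed from GFP cells in 1 member, Scn2b, which was lower. Of 23 members that entered, 0 were higher and 1 lower (0% and 4.35%), against 6.79% and 8.51% of 7846 genes, and the median log2 ratio was -0.23 against -0.10. Scn2b was 2.05-fold lower in Id2 cells, with log2 ratios of -1.01 from summed counts, -1.31 from means over cells and -1.33 from thinned cells. The version from summed counts lay at the threshold, so that leaving out any of 56 of the 130 cells ended the call, over a range of -1.21 to -0.78. Both sets of titles gave lower levels, 34.3 CPM with Id2 against 61.3 CPM with GFP in titles up to 95, and 15.9 CPM with Id2 against 45.5 CPM with GFP in the higher-numbered titles. Without microglia-rich cells the ratio was -0.88, and 5 of 10 alternatives ended the call. Scn3b was 2.21-fold lower from summed counts, with log2 ratios of -1.14 from summed counts, -0.95 from means over cells and -0.94 from thinned cells, and so missed the rule. In titles up to 95 it had 74.6 CPM with Id2 against 269.9 CPM with GFP, and in the higher-numbered titles 225 CPM with Id2 against 284 CPM with GFP. Cacna1h and Cacna1e had log2 ratios of 0.0081 and -0.23.

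GFP cells were compared with control cells, as both are controls but differ in the virus and in their titles. Cacna1g and Scn2b were higher with GFP, and Hcn2 and Cacna1c were among the lower members. In all there were 2 higher and 3 lower of 25 members (8% and 12%), against 12.5% and 8.77% of 8085 genes. The median log2 ratio was 0.28, against 0.13 over all genes. Scn2b was 9.01-fold higher with GFP (2.99), no single cell ended it, and without microglia-rich cells it was 1.92. Cacna1c (-1.10) was lost without control cell 31 (-0.86) or 36 (-0.97) and Cacna1g (1.11) without any of 7, over a range of 0.54 to 2.19. Hcn2 (-1.39) was 0.24 without control cell 42 and 1.97 without microglia-rich cells, and it passed the filter only through control cells. Scn3b lay within 1.03-fold between these groups. The choice of reference mattered for Scn2b and for other members. Against GFP cells in place of control cells, Scn2b had a log2 ratio of -1.80 at day 1 and -1.76 at day 14. Scn3a (-0.92), Cacng3 and Hcn2 at day 1 also missed the rule against GFP cells. At day 14 so did Cacnb1 (0.92), Cacnb2 (-0.098), Cacna1h, Cacna1i, Scn1a and Cacna1c. Scn3b at day 1 was -2.88 against GFP cells and Cacna1e at day 14 -2.68, with the same sign as against control cells. Cacna1d and Cacna1h at day 1, and Cacna1g, Cacna1s, Scn3a and Scn9a at day 14, were among others that still met the rule.

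**Figure D3:**
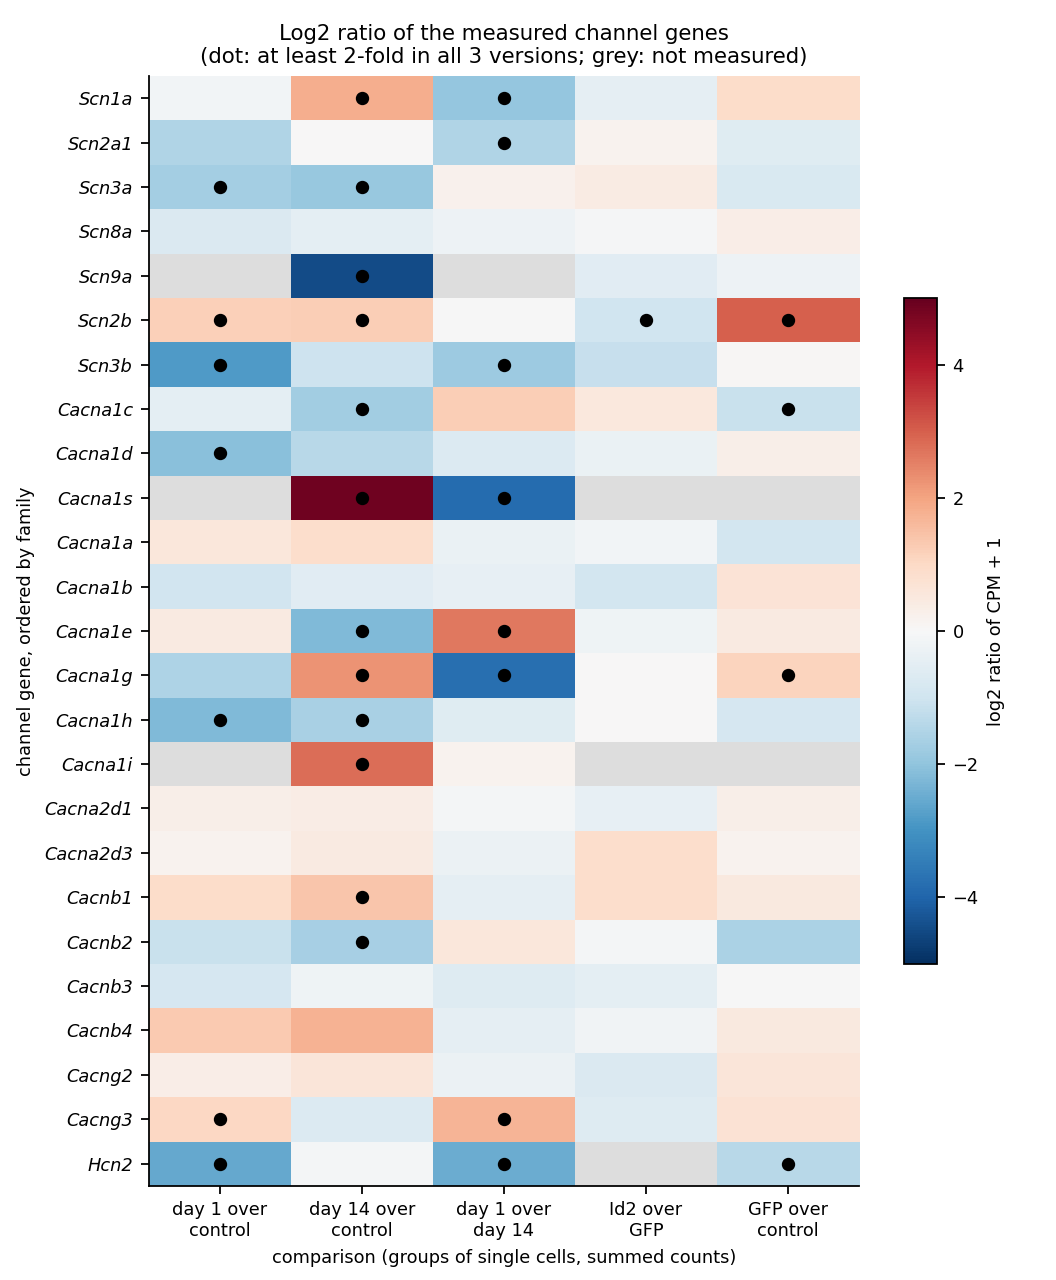
Log2 ratio of CPM + 1 from summed counts for 25 members that passed the filter on low values in at least 1 of the 5 comparisons (columns), with colour from -5 (blue) to 5 (red), grey where the gene did not pass, and a dot where all 3 versions reached 2-fold. The day 1 column shows Scn3b at -2.83 and the Id2 column carries 1 dot, at Scn2b (-1.01).

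Over the 5 comparisons, 19 of the 44 genes met the rule at least once. These are 70.4% of the 27 that passed the filter in at least 1 comparison, against a background of 59.4% of 10228 genes. Another 8 passed the filter on low values and met it in none (Cacna1a, Cacna1b, Cacna2d1, Cacna2d3, Cacnb3, Cacnb4, Cacng2 and Scn8a), and 17 passed the filter in none. Some misses were narrow. Cacnb4 at day 14 had a log2 ratio of 1.75 from summed counts, and leaving out any of 26 cells made it count as higher. Cacnb2 at day 1 (-1.10) and Scn3b at day 14 (-1.03) counted as lower without any of 30 and 22 cells. Of the 34 differences in all, Scn3b and Cacna1h at day 1, Cacna1s and Scn3a at day 14, Cacna1e, Cacna1g, Cacna1s, Cacng3, Scn1a and Scn3b between day 1 and day 14, and Scn2b between GFP and control met the rule under each alternative run short of leaving out single cells. In that list, Cacna1s and Cacna1g passed the filter only through day 14 cells, where they were high.

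**Figure D4:**
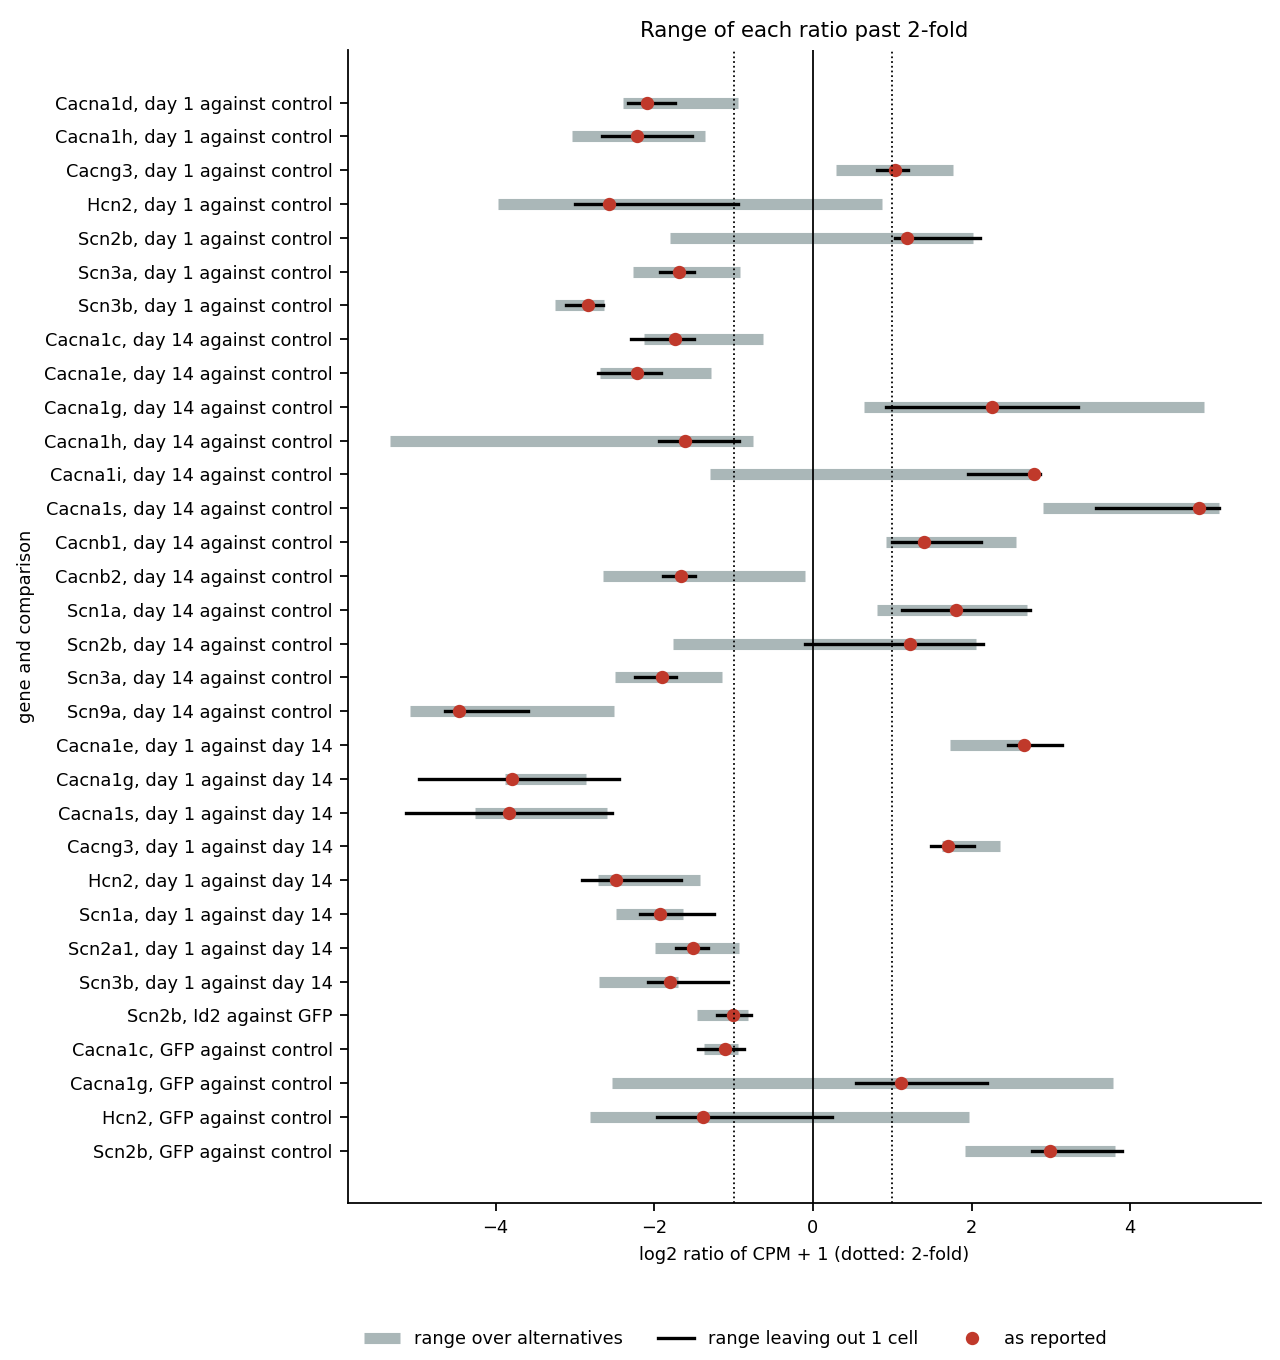
Log2 ratio of CPM + 1 of 32 of the 34 differences (red points), with the range over the processing alternatives (grey bars) and over leaving out each cell in turn (black lines). Dotted lines mark 2-fold: Scn3b at day 1 stays between -3.25 and -2.64 over the alternatives, and Hcn2 and Scn2b at day 1 cross 0.

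A list of 32 related genes was counted by the same rule, among them genes whose products bind, anchor or restrain these channels. The list also held genes of other channels, such as Nalcn, Unc79, Unc80 and Tpcn1. At day 1, 2 of 26 were higher and 3 lower, at day 14 3 and 2 of 27, at day 1 over day 14 2 and 3 of 27, with Id2 over GFP 0 and 2 of 24, and with GFP over control 3 and 2 of 24. As shares these are 7.69% higher and 11.5% lower at day 1 (background 16.4% and 10.7%), 11.1% and 7.41% at day 14 (17.8% and 10.7%), 7.41% and 11.1% between the days (13.1% and 14.4%), 0% and 8.33% for Id2 (6.79% and 8.51%), and 12.5% and 8.33% for GFP against control (12.5% and 8.77%), near or below the background. The processing alternatives and the leaving out of single cells were run for the members only, so differences in this list were not checked in that way. Rem2 and Rrad, small GTPases that inhibit high-voltage-activated calcium channels by binding their beta subunits, were higher in both kainate groups. Rrad had 104.5 CPM at day 1, 67.6 CPM at day 14 and 5.61 CPM in control cells. Rem2 had 66.4 CPM at day 1, 26.2 CPM at day 14 and 6.18 CPM in control cells. Rims1, an active-zone scaffold that binds calcium channels, had 23.4 CPM at day 1 against 121.8 CPM in control cells. Fgf14, which binds sodium channel alpha subunits at the axon initial segment, had 7.44 CPM at day 14 against 36.5 CPM in control cells. Pex5l (TRIP8b), the trafficking partner of HCN channels, had 5.52 CPM with Id2 against 15.2 CPM with GFP. The others that met the rule were Unc79 and Dlg4 (lower at day 1), Rims2 (higher at day 14) and Unc80 (lower), Fgf14 and Rem2 (higher at day 1 than at day 14) with Rims1, Cabp1 and Stac2 (lower), Dlg4 (lower with Id2), and Fgf13, Rims2 and Tpcn1 (higher with GFP than in control cells) with Rims1 and Cabp1 (lower).

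Between cells of a group, pairs of members read in at least 50% of the thinned cells went together weakly at most. These Spearman correlations describe cells that share a group, a preparation and a depth of 100000 reads. Over the 58 day 1 cells 1 of the highest of 45 was 0.44 for Cacna1c with Cacna2d3, and the lowest was -0.14 for Cacnb1 with Scn2a1. Over the 71 Id2 cells the highest of 10 was 0.25 for Cacna1e with Scn3a. Over the 59 GFP cells the highest of 28 was 0.25 for Cacna1e with Scn2b, and the lowest -0.23 for Scn2b with Scn8a.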

How the data were processed

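Sequencing libraries of single cells were made with Nextera XT from cytosol drawn into a patch pipette, per the labels' protocols. Trimmomatic, STAR, featureCounts and the build GRCm38 are named, without versions, per the submitters' processing notes. The sources used here give neither the counting strand nor the annotation, nor the rule behind the quality labels. One table deposited by the authors holds counts (whole reads) of 22800 genes in 291 cells. A further deposited table of 252 cells holds a scaled signal, each cell's counts times 1 factor (0.187 to 287), and served only as an alternative. The names of both deposited tables point the other way round, so the units were settled on the values.

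Of 304 labelled cells, 13 without a column under their title were not analysed here, 39 were labelled Failed, of which 38 belong to the 5 groups and entered 1 alternative only, and 2 cells of the uninjected side and 2 labelled low_DG were left out. With 1 sample per group, no test, p-value or standard error was made. The members, gene lists and rules were chosen with earlier results of these data known. Members given in full are those that met the fold rule in at least 1 comparison and the highest of each family in GFP cells, and genes of the related list are named where they met it. Results of some members are not reported here, and these members remain in the counts and family totals. Cells were thinned to 100000 reads with a fixed seed, which left out 2 control cells. Exon lengths, positions and overlaps come from GENCODE M21 on GRCm38, and promoters from RefSeq on GRCm38.p6. All 44 symbols matched GENCODE M21, Scn2a1 through its current symbol Scn2a. Intervals are at 95%. Python 3.11.15, numpy 2.4.6, pandas 2.3.3, scipy 1.17.1 and matplotlib 3.10.9 were used. Alternatives were another pseudocount (5 CPM), no filter, summed counts alone, median-of-ratios scaling, the scaled table, other choices of cells, and leaving out each cell in turn, which was added after the data were seen.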

Additional observations from a re-analysis of the deposited data

How the results depend on the processing

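Of 354 log2 ratios of the 34 differences recomputed under the processing alternatives, 345 had the same sign and 286 still met the rule. Of the 9 with the other sign, Hcn2 at day 1 was 0.87 without microglia-rich cells. Against GFP cells as the control, Scn2b was -1.80 at day 1 and -1.76 at day 14, and Cacna1i -1.30 at day 14. Scn2b at day 14 was -1.14 without microglia-rich cells. For GFP against control, Hcn2 was 1.97 without microglia-rich cells and 0.63 against J-titled controls, and Cacna1g -0.39 against the other controls and -2.53 with the higher-numbered GFP titles. The cause was not tested.

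Counts moved as follows. At day 1 the higher members, 2 as reported, were 1 with 5 CPM added, 6 with no filter, 4 with summed counts alone, 1 with median-of-ratios scaling, 1 with Failed cells added, 1 without microglia-rich cells, 1 with J-titled controls and 0 with GFP cells as the control. At day 1 the lower members, 5 as reported, were 10 with no filter, 8 with summed counts alone, 9 in the scaled table, 3 with Failed cells added, 3 without the deepest 10% of cells, 3 with J-titled controls, 8 with the other controls and 8 with GFP cells as the control. For day 1 against day 14 the higher members, 2 as reported, were 5 with no filter and 4 without microglia-rich cells. For day 1 against day 14 the lower members, 6 as reported, were 13 without microglia-rich cells. For Id2 against GFP the higher members, 0 as reported, were 2 with no filter, 1 in titles up to 95 and 2 in higher-numbered titles. For Id2 against GFP the lower members, 1 as reported, were 0 with 5 CPM added, 3 with no filter, 2 with summed counts alone, 0 with median-of-ratios scaling, 2 in the scaled table, 2 without the deepest 10% of cells, 4 in titles up to 95 and 4 in higher-numbered titles. For GFP against control the higher members, 2 as reported, were 1 with 5 CPM added, 7 with no filter, 1 with median-of-ratios scaling, 6 in the scaled table, 4 without microglia-rich cells, 6 without the deepest 10% of cells, 4 with the other controls and 4 with higher-numbered GFP titles. For GFP against control the lower members, 3 as reported, were 6 with no filter, 0 with Failed cells added and 5 with GFP titles up to 95. Both day 14 counts were within 1.5 times of those reported under each alternative. Leaving out 1 cell gave 1 to 4 higher and 5 to 7 lower at day 1, 5 to 8 and 5 to 7 at day 14, 2 to 3 and 5 to 6 between the days, 0 to 1 and 0 to 2 for Id2, and 1 to 4 and 2 to 4 for GFP against control. Median-of-ratios scaling moved the median of all genes by -0.17 log2 at day 1, -0.13 at day 14, -0.026 between the days, 0.10 for Id2 and -0.13 for GFP against control. No paired analysis was possible because the labels give no animal or replicate number shared between groups. Control cells had the lowest summed depth and the widest counting intervals, which leave out the spread between cells.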

Other observations

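In the 2 day 1 cells labelled as contralateral to the injection, which belong to no comparison above, Cacna1e had 617 CPM, Scn3a 138 CPM, Scn3b 56.8 CPM and Cacng3 49.6 CPM, while Scn1a and Cacna1s had 0 reads. Control cells also differed by title: Scn3a had 148 CPM in the 22 J-titled cells and 291 CPM in the 9 others. Scn1a had 16.7 and 64.4 CPM, Cacnb2 89.7 and 324 CPM, and Cacna1h 194 and 88.4 CPM. Scn8a had 228 and 223 CPM in the same cells.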
